A study of Mus musculus with 2 samples.

Results

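The tight junction seal of the mouse trophectoderm was followed through 8 genes, Cldn4, Cldn6, Cldn7, Ocln, Marveld2, F11r, Tjp1 and Cgn, which were taken by symbol from a table of 52366 genes. All 8 had counts, and 6 of them were among the 5940 genes that passed a filter on low counts and were tested. Ocln and Marveld2 did not pass it. The study asked how long single blastomeres keep the potential to form a blastocyst and an embryo. Single-embryo RNA sequencing covered 24 pseudoblastocysts, which are embryos with a cavity that were collected at 96 h post insemination (hpi) without assessing whether they held an inner cell mass, so that trophoblastic vesicles could be among them. There were 6 zygotes freed of the zona pellucida at 5 hpi (1C), and 6 embryos each grown from a single blastomere isolated at 24 hpi from a 2-cell embryo (2CB), at 48 hpi from a 4-cell embryo (4CB) or at 48 hpi from an 8-cell embryo (8CB). All embryos came from oocytes of B6D2F1 females (8 to 9 weeks of age) fertilized in vitro with spermatozoa of ICR males (15 to 20 weeks of age), and the zona pellucida was removed in every group, 1C included. Which embryos shared parents, or which blastomeres were sisters, was not given, and the p-values measure the spread between these 24 embryos.

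Tight junctions form a belt below the apical surface of epithelial cells. Claudins, occludin and tricellulin span the membrane and build the strands that close the gap between neighbouring cells, the immunoglobulin-type protein JAM-A adheres across that gap, and plaque proteins such as ZO-1 and cingulin tie the strands to actin and myosin. In the mouse embryo the outer cells assemble this seal as they become trophectoderm, and a cavity is held only when fluid pumped inward cannot leak back between the cells.

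The labels gave 2 library pools, 1 of 1C with 8CB embryos and 1 of 2CB with 4CB embryos. The comparison of 2CB and 4CB with 1C and 8CB is therefore also a comparison of the pools, and the effect of the pool and that of the stage cannot be told apart in it. The pairs 8CB against 1C and 4CB against 2CB lie within a pool. Total counts of unique molecular identifiers (UMIs) per embryo ran from 70941 (an 8CB embryo) to 1507471 (a 2CB embryo), with medians of 244312 for 1C, 519932 for 2CB, 216325 for 4CB and 313283 for 8CB. RNA of a whole embryo was measured, so fewer cells of a type and less RNA per cell cannot be told apart. Levels are given as CPM (counts scaled to a library total of 1000000, with TMM factors). They are counts of 3′ tags, not divided by length, and are compared between embryos for each gene and not between genes.

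Together the 8 genes made up a larger part of the counts in 2CB and 4CB embryos. Their summed level was 2316 CPM in the lowest, 2903 CPM in the median and 3439 CPM in the highest of the 12 embryos of 2CB and 4CB. In the 12 embryos of 1C and 8CB it was 840, 1212 and 1999 CPM. The ranges of this sum did not overlap. The sum gives most weight to genes with many counts, and its difference came mostly from Cldn6 and Cldn7. Their means were 920 and 924 CPM in 2CB and 4CB against 151 and 504 CPM in 1C and 8CB. The mean sum was 2926 against 1374 CPM, and the means of Ocln and Tjp1 were not higher in 2CB and 4CB. No single gene among the 8 separated every embryo of the sides, as 5.69% of all single genes tested did, a share that is no reference for a sum. By stage the mean sum was 3024 ± 353 CPM for 2CB, 2827 ± 381 for 4CB, 1386 ± 404 for 8CB and 1363 ± 407 for 1C (± SD, n = 6 each).

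Of the 6 genes tested, 4 were called higher in 2CB and 4CB than in 1C and 8CB at an adjusted p below 0.1 (edgeR), namely Cldn6, F11r, Cldn7 and Cldn4, and none was called lower. Over all genes tested, 31.3% were called higher and 24% lower in the same comparison, and the median log2 fold change was 0.12, against which the values of single genes are read. The filter asked for 30.2 CPM in 6 embryos, and a gene that reached this on one side alone was kept in part for being high there, so that its difference gives no support. All 6 genes reached it on each side. Of the 3733 genes that did so, 23.9% were called higher and 26.4% lower. The 2 genes tested and not called encode the plaque proteins, Tjp1 and Cgn.

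The promoters of the 4 called genes are shown because these genes were called in the same direction. Each line is the 250 bases before the transcription start in RefSeq (GRCm38.p6), 5′ to 3′ on the strand of the gene, and capitals mark the motif matches described next. Cldn6 lies on the plus strand (chr17:23679115-23679364), as do Cldn7 (chr11:69964529-69964778, the first of 2 listed starts) and F11r (chr1:171437311-171437560), and Cldn4 lies on the minus strand (chr5:134946935-134947184).
Cldn6: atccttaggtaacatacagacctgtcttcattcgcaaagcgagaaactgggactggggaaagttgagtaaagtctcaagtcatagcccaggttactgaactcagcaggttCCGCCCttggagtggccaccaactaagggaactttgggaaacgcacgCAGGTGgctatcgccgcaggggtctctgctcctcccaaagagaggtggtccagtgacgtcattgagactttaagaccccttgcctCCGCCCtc
Cldn7, first start: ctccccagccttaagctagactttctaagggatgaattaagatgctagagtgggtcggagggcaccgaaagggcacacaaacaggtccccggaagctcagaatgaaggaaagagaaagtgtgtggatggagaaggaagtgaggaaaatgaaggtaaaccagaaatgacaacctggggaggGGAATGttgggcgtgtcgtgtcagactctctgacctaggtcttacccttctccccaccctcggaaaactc
F11r: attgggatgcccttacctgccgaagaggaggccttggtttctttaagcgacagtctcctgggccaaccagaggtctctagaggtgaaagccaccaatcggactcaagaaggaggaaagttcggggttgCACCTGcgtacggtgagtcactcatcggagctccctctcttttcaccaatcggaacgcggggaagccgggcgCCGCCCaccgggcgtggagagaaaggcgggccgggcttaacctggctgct
Cldn4: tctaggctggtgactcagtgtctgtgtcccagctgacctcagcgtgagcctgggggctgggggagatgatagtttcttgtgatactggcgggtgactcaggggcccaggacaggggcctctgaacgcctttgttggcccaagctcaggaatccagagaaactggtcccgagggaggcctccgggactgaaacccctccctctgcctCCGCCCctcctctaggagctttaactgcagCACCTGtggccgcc

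Motifs were searched on both strands in these windows and in all 32851 listed promoters. CACCTG, an E-box letter run recognised by Snail-type factors, was found in the windows of Cldn6, Cldn4, F11r and the second start of Cldn7, and in 17.2% of all promoters. It was also found at the second listed start of Ocln, and not in the windows of Tjp1, Cgn or Marveld2. The only listed window of Tjp1 (chr7:65371245-65371494, minus strand) lies inside the span of the gene. The sequence before the 5′ end of that span was not searched. GGGCGG, a run recognised by KLF and SP factors, was found at 1 or more starts of each of the 8 genes and in 32.7% of all promoters. In Cldn6 it lay at -140 to -135 and at -8 to -3 from the RefSeq start. The sequence just after this start was not found in a Cldn6 transcript of GENCODE M21. GGAATG, of the TEAD type, was found only at the first start of Cldn7 among the 8 genes, at -70 to -65, and in 12.6% of all promoters. The window before the second start of Cldn7 (chr11:69965171-69965420) overlaps exons of transcripts from the first start and is not printed. GCCNNNGGC, of the TFAP2 type, was found in none of the windows printed but at the second starts of Ocln, where it overlapped a GGGCGG match, and Marveld2, and in 13.7% of all promoters. AGATAA, recognised by GATA factors, and AACCGGTT, recognised by GRHL factors, were found in none of the 8 genes' windows and in 3281 and 38 of all promoters. These matches are letters in a window and no binding was measured.

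Cldn6 encodes a claudin of early embryonic epithelia and had the largest log2 fold change of the 6 genes tested. Its gene lies at chr17:23679365-23682446 on the plus strand in the deposited annotation, a span that is not the same in GENCODE M21. The lowest, median and highest levels were 620, 955 and 1256 CPM for 2CB, 488, 792 and 1407 CPM for 4CB, 26.2, 150 and 599 CPM for 1C, and 0, 52.9 and 355 CPM for 8CB. Every 1C and 8CB embryo was below the median of 2CB and 4CB, and 11 of these 12 embryos were below the lowest 2CB or 4CB embryo. The exception was 1C embryo 5, with 599 CPM from 200 UMIs. At the other end, 8CB embryo 3 had 0 Cldn6 UMIs among 329227, and 8CB embryo 4 had a single UMI. Cldn6 was 6.46-fold higher in 2CB and 4CB (log2 fold change 2.69, SE 0.48, edgeR adjusted p = 3.1e-05). Leaving out each embryo in turn gave log2 fold changes of 2.51 to 3.47, the largest without 8CB embryo 1, and 3.03 without 1C embryo 5.

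The next gene downstream of Cldn6 is another claudin gene, Cldn9, which lies on the opposite strand with its 3′ end 137 bases from that of Cldn6. Whether counting used strand was not given in the sources used here. Cldn9 had 18 UMIs in all 2CB and 4CB embryos together and 7 in all 1C and 8CB embryos, against 5821 and 454 for Cldn6.

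Cldn7 encodes a claudin found along the sides of many epithelial cells, and its gene lies at chr11:69964779-69967885 on the plus strand. Its lowest, median and highest levels were 741, 1022 and 1181 CPM for 2CB, 594, 890 and 1041 CPM for 4CB, 131, 490 and 829 CPM for 1C, and 325, 521 and 726 CPM for 8CB. All 12 embryos of 2CB and 4CB exceeded the median of 1C and 8CB, and 9 of them exceeded the highest 1C or 8CB embryo. The difference was 1.83-fold (log2 fold change 0.87, SE 0.22, adjusted p = 0.00146).

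Cldn4 encodes a claudin that limits the passage of ions between cells, and its gene lies at chr5:134945119-134946934 on the minus strand. Its levels overlapped widely. The lowest, median and highest were 282, 485 and 849 CPM for 2CB, 323, 468 and 726 CPM for 4CB, 159, 325 and 415 CPM for 1C, and 158, 387 and 660 CPM for 8CB. Only 2 of the 12 embryos of 2CB and 4CB exceeded the highest 1C or 8CB embryo. Cldn4 was 1.45-fold higher in 2CB and 4CB (log2 fold change 0.53, SE 0.22, adjusted p = 0.0458). This call rested on single embryos. It was lost without 1C embryo 5, without 2CB embryo 2 or without 4CB embryo 2, where the log2 fold change fell to as little as 0.38 and the adjusted p rose to as much as 0.154, and it was also lost with no filter on low counts (adjusted p = 0.102).

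F11r encodes JAM-A, the adhesion protein of the junction, and its gene lies at chr1:171437535-171464603 on the plus strand. The lowest, median and highest levels were 229, 311 and 519 CPM for 2CB, 193, 297 and 405 CPM for 4CB, 97.1, 114 and 276 CPM for 1C, and 36.6, 164 and 350 CPM for 8CB. All 12 embryos of 2CB and 4CB were above the median of 1C and 8CB, and 10 of the 12 embryos of 1C and 8CB were below the lowest of 2CB and 4CB. F11r was 2.03-fold higher in 2CB and 4CB (log2 fold change 1.02, SE 0.25, adjusted p = 0.00144).

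**Figure D1:**
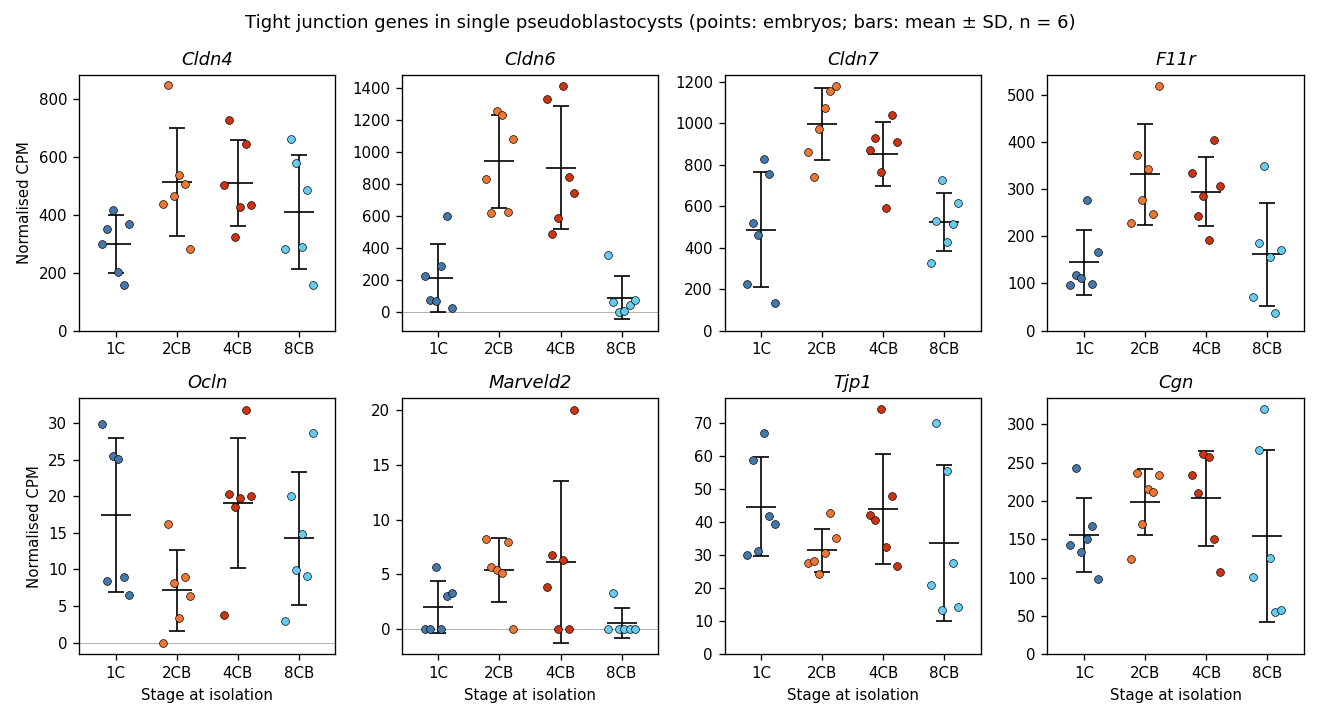
Normalised CPM of the 8 tight junction genes (vertical axes, linear, a separate scale for each gene) in each of 24 embryos by stage at isolation (horizontal axes). Points are embryos, and bars are the mean ± SD over 6 embryos. Cldn6 lies between 488 and 1407 CPM in 2CB and 4CB embryos and at or below 599 CPM in 1C and 8CB embryos, whereas Tjp1, Ocln and Cgn overlap throughout.

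The 2 plaque genes among the 8 gave no call. Of 6 other plaque genes that passed the filter on each side, 3 were called higher and 1 lower. Tjp1, the gene of the scaffold ZO-1 (chr7:65296165-65527781, minus strand), had a median of 40.6 CPM for 1C (range 29.9 to 67.0), 24.2 for 8CB (range 13.3 to 70.0), 29.5 for 2CB (range 24.3 to 42.6) and 41.5 for 4CB (range 26.7 to 74.1). These ranges overlapped in every pair of stages. The log2 fold change between the sides was -0.06 (SE 0.28, adjusted p = 0.874), with an approximate 95% interval of -0.61 to 0.48. Cgn, the gene of cingulin (chr3:94760069-94786492, minus strand), had a median of 146 CPM for 1C (range 98.1 to 243), 114 for 8CB (range 54.9 to 320), 214 for 2CB (range 124 to 236) and 222 for 4CB (range 107 to 261). Its log2 fold change was 0.36 (SE 0.24, adjusted p = 0.222), with an interval of -0.11 to 0.84. The highest Cgn level of all was in an 8CB embryo, embryo 3, and without this embryo the log2 fold change was 0.50 and the adjusted p 0.0832. With all 24 embryos thinned to 70941 UMIs each in a single random draw, the log2 fold change was 0.10 (adjusted p = 0.761).

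Ocln and Marveld2 were detected at few counts. Their genes are neighbours on chromosome 13 on the same strand, with 43238 bases and no protein-coding gene between them (Ocln at chr13:100496507-100552718, Marveld2 at chr13:100595957-100616971). Ocln encodes occludin and gave 81 UMIs in all 2CB and 4CB embryos together and 39 in all 1C and 8CB embryos, from pooled totals of 6658255 and 2952530. The ratio of the pooled CPM was 0.921, with a 95% counting interval of 0.621 to 1.39. Ocln UMIs were found in 11 of 12 and 12 of 12 embryos at full depth, and in 4 and 10 when every embryo was thinned to the smallest total of 70941 UMIs. At that equal depth 8 Ocln UMIs were left on the side of 2CB and 4CB and 18 on the side of 1C and 8CB. The thinning was a single random draw. The spread between draws was not measured, and no difference is read from these few UMIs.

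Marveld2 encodes tricellulin, which seals the points where 3 cells meet. It gave 36 UMIs in 9 of the 12 embryos of 2CB and 4CB and 5 UMIs in 4 of the 12 embryos of 1C and 8CB, a ratio of pooled CPM of 3.19 (95% counting interval 1.25 to 10.4). Thinned to 70941 UMIs per embryo, 4 UMIs in 4 embryos were left on the first side and 2 UMIs in 2 embryos on the second. These counting intervals leave out the spread between embryos. With no filter on low counts, edgeR gave Marveld2 a log2 fold change of 1.73 (adjusted p = 0.155) and Ocln one of -0.30 (adjusted p = 0.946). Neither difference was past the threshold. In 8CB a single Marveld2 UMI was found in 1 of 6 embryos.

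Across the 4 stages, 47.1% of all genes tested differed at an adjusted p below 0.1. Cldn6 (adjusted p = 0.000399), Cldn7 (0.012) and F11r (0.0125) were among them, and Cldn4 (0.143), Cgn (0.628) and Tjp1 (0.639) were not. Mean levels of Cldn4, Cldn7 and F11r were highest in 2CB, followed by 4CB, 8CB and 1C. The order for Cldn6 was 2CB, 4CB, 1C and 8CB. Of the neighbours in this order, 4CB and 1C were past the threshold for Cldn6 (adjusted p = 0.0155), and 2CB with 4CB and 1C with 8CB were not. For Cldn7 and F11r, 4CB and 8CB were past it (adjusted p = 0.0775 and 0.076). No neighbours were past it for Cldn4, for Cgn (4CB, 2CB, 1C, 8CB) or for Tjp1 (1C, 4CB, 8CB, 2CB).

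The pairs of stages across the pools share embryos, and their values are set side by side. Against 1C, 41.5% of all genes differed in 2CB and 40.9% in 4CB, and 4 of the 6 genes were called higher in each pair. Against 8CB, 38.4% of all genes differed in 2CB and 40.2% in 4CB, and 3 of the 6 were called higher in each pair, without Cldn4. Cldn6 had log2 fold changes of 2.13 (SE 0.65) for 2CB and 2.07 (SE 0.65) for 4CB against 1C, and of 3.32 (SE 0.70) and 3.26 (SE 0.70) against 8CB. Cldn7 had 1.04 and 0.81 against 1C and 0.94 and 0.70 against 8CB. Cldn4 had 0.78 and 0.75 against 1C (adjusted p = 0.0537 and 0.0643) and 0.31 and 0.29 against 8CB (adjusted p = 0.471 and 0.512).

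**Figure D2:**
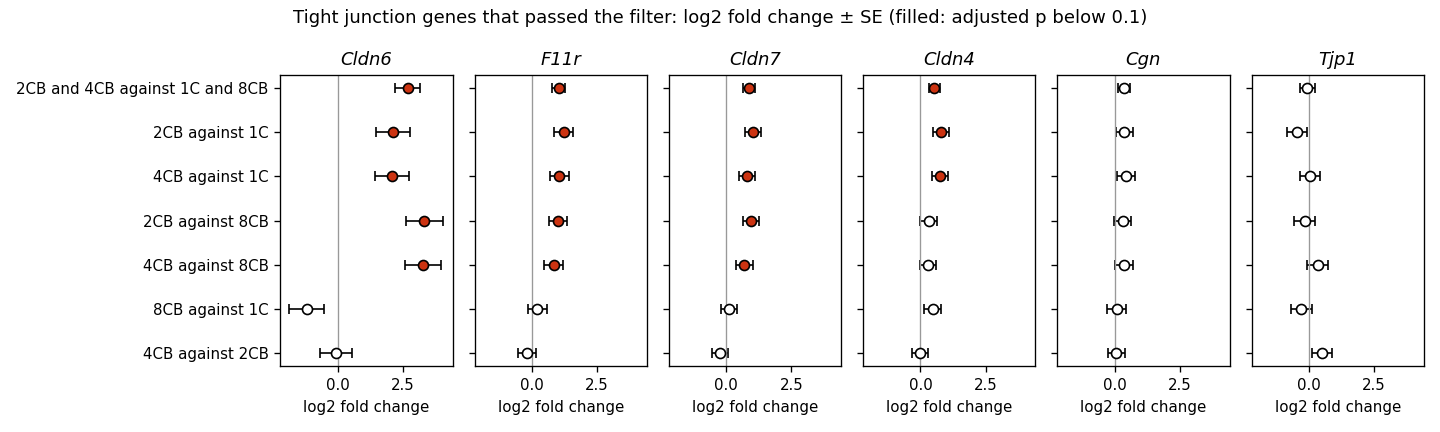
Log2 fold change ± SE (horizontal axes) of the 6 tested genes in 7 comparisons (rows), from the fit over all 24 embryos. Filled points had an adjusted p below 0.1. Cldn6, F11r and Cldn7 are filled in each comparison across the pools, Cldn4 only in those that include 1C, and no gene is filled in the 2 comparisons within a pool.

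Within the pools none of the 6 genes was called. For 8CB against 1C, 0% of all genes were called by edgeR, 550 genes had an unadjusted p below 0.05, and DESeq2 called 44. None of the 6 genes was among these 44, and their smallest unadjusted p in edgeR was 0.0914, for Cldn6, which had a log2 fold change of -1.19 (SE 0.68) and an approximate 95% interval of -2.53 to 0.15. Single embryos moved this value widely, to -0.45 without 1C embryo 5 (adjusted p = 0.877) and to -2.83 without 8CB embryo 1 (adjusted p = 0.211). The intervals of the other 5 genes ran from -1.09 at the lowest to 1.08 at the highest.

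For 4CB against 2CB, 0.0337% of all genes were called, which is 2 genes. DESeq2 called 16, and 263 genes were below 0.05 before adjustment. None of the 6 genes was called by either tool. The log2 fold changes ran from -0.23 for Cldn7 to 0.49 for Tjp1, and the interval of Cldn6 was -1.26 to 1.14. The difference between these 2 comparisons was called for 0% of all genes (532 were below 0.05 before adjustment), and the smallest unadjusted p among the 6 genes was 0.175, for Tjp1.

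The make-up of the claudin counts differed between embryos. Cldn6 took 22.8% to 58.0% of the UMIs of Cldn4, Cldn6 and Cldn7 in the 12 embryos of 2CB and 4CB, with a median of 37.3%. In 1C it took 4.97% to 39.6% with a median of 14.8%, and in 8CB 0% to 36.8% with a median of 4.59%. The share is formed within an embryo and does not depend on scaling between libraries. It was highest in 1C in embryo 5 and in 8CB in embryo 1, and the other 5 embryos of 8CB were at or below 8.47%. Cldn4 took a median of 40.1% in 1C and 8CB and 19.9% in 2CB and 4CB. The share of Cldn7 differed least, with medians of 49.5% and 40.8%.

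Cgnl1, which encodes paracingulin, a paralog of cingulin, gave 188 UMIs in 2CB and 4CB and 6 in 1C and 8CB. It passed the filter only through 2CB and 4CB, so that no test is given, and it was chosen after its values were seen.

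**Figure D3:**
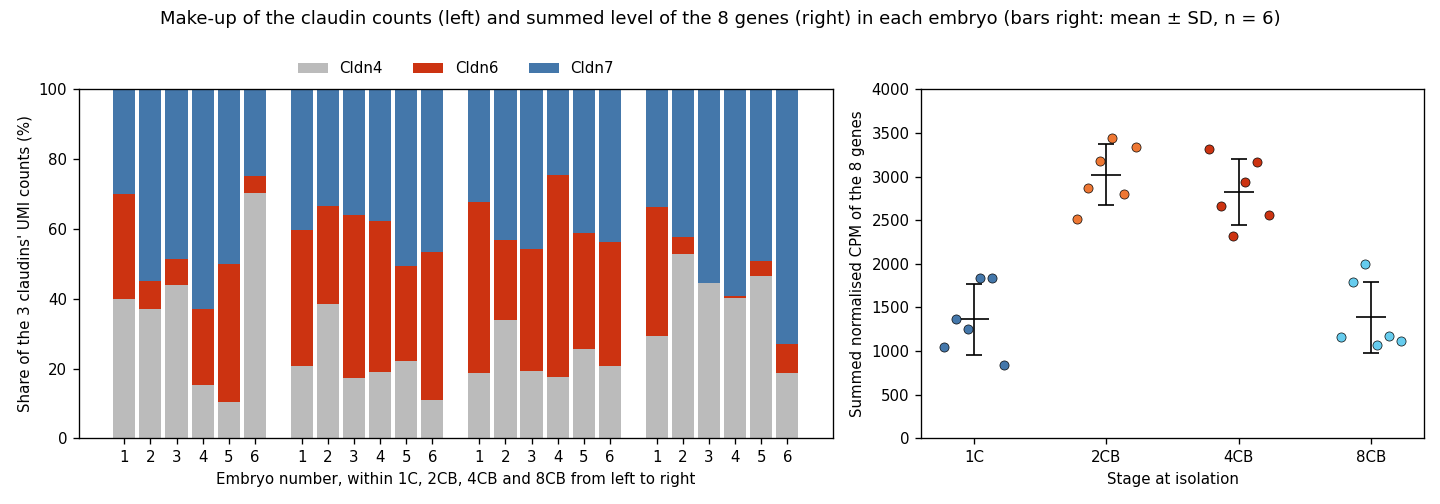
Left, share of the UMIs of Cldn4, Cldn6 and Cldn7 taken by each (stacked bars, %) in each embryo. Right, summed normalised CPM of the 8 tight junction genes (points, embryos, with the mean ± SD over 6) by stage. The Cldn6 share is 22.8% or higher in all 2CB and 4CB embryos and below 10% in 8 of the 12 others, and the sum is 2316 CPM or higher in all 2CB and 4CB embryos and 1999 CPM or lower in the others.

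Levels of the 6 genes within stages followed each other weakly. After the mean of each stage was subtracted, Pearson's r of log2 CPM over 24 embryos lay between -0.45 (Cldn4 with Cldn6) and 0.46 (F11r with Cgn) for the 15 pairs. The points share 2 pools and differ in depth, and the values are given as a description. Cldn7 was most like Hexa, a lysosomal hexosaminidase gene (r = 0.909), Gata3, a trophectoderm transcription factor gene (r = 0.846), and Rnpep (r = 0.81), among the 3693 tested genes whose mean reached 50 CPM. Cldn4 was most like Tmem209 (r = 0.784), Nop2 (0.763) and Mcts1 (0.73), and Cgn most like Tram1 (0.825), Wdr26 (0.729) and Dhx9 (0.723). F11r was most like Dnajc3 (0.746) and Spint2 (0.703). Cldn6 and Tjp1 had no gene at r = 0.7 or higher.

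The other claudin genes gave few counts in these libraries. Of 20 further claudin genes none passed the filter, 12 had no UMI in any of the 24 embryos and 16 had none in 1C and 8CB. Cldn3 lies 39279 bases from Cldn4 with no protein-coding gene between them and was named after its values were seen. It gave 60 UMIs in 2CB and 4CB and 0 in 1C and 8CB, which is at least 8.87-fold higher, with the floor set at 3 counts over the group. Cldn15, also named after its values were seen, differed the other way, with 2 UMIs in 2CB and 4CB and 9 in 1C and 8CB. The ratio of its pooled CPM was 0.0985, with a 95% counting interval of 0.0104 to 0.476. Neither gene passed the filter, and no test is given for them. Cldn12 gave 152 UMIs in all, with stage means between 11.3 CPM (1C) and 21.1 CPM (4CB).

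The wider lists are described by the genes that passed the filter on each side. Over all such genes the median log2 fold change was -0.02, with 23.9% called higher and 26.4% lower. Of 9 other membrane proteins of tight junctions only Cxadr passed in this way, which encodes the coxsackievirus and adenovirus receptor, an adhesion protein, and had a log2 fold change of 0.97 (adjusted p = 0.00324). Jam2 and Ildr1 passed only through 2CB and 4CB. Ildr1, an angulin that brings tricellulin to the contacts of 3 cells, gave 715 UMIs in 2CB and 4CB and 7 in 1C and 8CB, none of them in 8CB. Of 16 other plaque proteins 6 passed on each side, of which 3 were called higher and 1 lower, with a median log2 fold change of 0.68. Amotl2 had 1.20, Afdn 1.13 and Ybx3 -0.57. Ybx3, which encodes the Y-box factor ZONAB that binds ZO-1, was the gene called lower (adjusted p = 0.00295).

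Of 9 adherens junction genes 4 passed on each side and 3 were called higher, and the median of the 4 log2 fold changes was 1.10. Nectin2 (log2 fold change 1.59), Cdh1, the gene of E-cadherin (1.27), and Ctnna1, the gene of alpha-catenin (0.94), were higher, with adjusted p-values up to 6.53e-05. Of 8 desmosome genes 3 passed on each side and were called higher, namely Dsp (2.28), Pkp4 (1.55) and Pkp2 (0.91), with adjusted p-values up to 0.04. Dsg2 and Dsc2 passed only through 2CB and 4CB. Of 9 genes of fluid transport 4 passed on each side, 1 was called higher and 1 lower, with a median log2 fold change of -0.37. Aqp9, an aquaporin, was the gene called lower, with a log2 fold change of -0.73 (adjusted p = 0.0314). None of the genes of these lists was called in 8CB against 1C or in 4CB against 2CB.

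Some markers of the cell types a blastocyst can hold also differed in this comparison, in both directions, and their part in the junction values was not tested. Of 13 trophectoderm markers 5 passed the filter on each side, 2 were called higher in 2CB and 4CB (Eomes and Gata3) and 1 lower (Tfap2c), with a median log2 fold change of 0.62, beside 23.9% and 26.4% of all such genes called higher and lower. Another 7 passed only through 2CB and 4CB, and their folds are not ranked. Among these, Krt18 gave 7414 UMIs in 2CB and 4CB and 120 in 1C and 8CB, Gata2 1567 and 7, Elf5 1154 and 1, and Tfap2a 952 and 11. The summed level of the 13 markers was 2820 to 6330 CPM in 2CB and 4CB and 754 to 1310 CPM in 1C and 8CB. This sum includes the 7 markers that passed only through 2CB and 4CB, so its difference gives no support. Every one of the 13 had UMIs on both sides, but Gata2 had none in 8CB and Elf5 none in 1C. Krt18 and Gata3 were present in all 4 stages, with means of at least 39.3 and 192 CPM.

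Of 8 epiblast markers 3 passed on each side, Nanog (log2 fold change -1.49), Klf2 (-1.34) and Klf4 (-0.52), and all 3 were called lower. Sox2 and Tdgf1 passed only through 2CB and 4CB, and the summed level of the list was 270 to 982 CPM in 2CB and 4CB against 373 to 1670 CPM in 1C and 8CB. Of 11 primitive endoderm markers 3 passed on each side, Lrp2 (2.04) and Dab2 (0.70), called higher, and Gata6 (-0.67), called lower. Another 4 passed only through 2CB and 4CB, among them Sox17, with 777 and 6 UMIs, and Lama1, with 984 and 1. The summed level of this list, which includes those 4 markers, was 1420 to 3380 CPM against 803 to 1460 CPM.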

How the data were processed

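The authors prepared CEL-Seq2 libraries of single embryos in 2 pools, sequenced them in a single run on an Illumina HiSeq instrument, aligned reads to GRCm38 with HISAT2 (ver. 2.2.6) and counted UMIs per gene with HTSeq (ver. 0.6.1). The deposited values are whole UMI counts, not normalized. Annotation release and strand setting were not given in the sources used here. Of 52366 genes, 51719 were given symbols from GENCODE M21. The largest count, 53029, is more than the number of sequences a UMI of the length in this protocol can have. A consensus read was counted per group of duplicates with the same UMI, but whether position also defined a group was not given, so counts may not equal molecules. Intervals cover counting error only. The 24 columns named Morula were not used. The embryo's stage was taken from its column name, and the pool from the labels.

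Counts were tested with edgeR 4.0.16 (TMM, filterByExpr, quasi-likelihood test, 1 mean per stage over all 24 embryos) in R 4.3.3, with Benjamini-Hochberg adjustment over 5940 genes and a threshold of 0.1. Standard errors were derived from the F statistic, and differences between stages were contrasts of that fit. The script was tested on simulated data. Levels used TMM-scaled CPM, and likeness log2 CPM with a prior count of 2. DESeq2 1.42.0 was an alternative, beside other filters, scaling, thinning to 70941 UMIs (a single random draw) and leaving out each embryo. The embryo number as a block and, within a pool, a fit on only the embryos compared were also used. Counting intervals were exact 95% binomial intervals with SciPy 1.17.1. The floor of 3 counts equals 0.451 CPM over 2CB and 4CB and 1.02 CPM over 1C and 8CB. The precision of a difference is limited by how far embryos of a stage differ (the common biological coefficient of variation was 0.442). Which side let a gene pass the filter was added after seeing the data. The genes and lists were chosen with earlier results of these data known. Beside the 8 genes, the genes named were, from each wider list, up to 4 with the largest changes among those called and averaging 50 CPM or more, and the 3 genes most like each tested gene at r of at least 0.7. Tdgf1, Jam2, Dsc2, Eomes, Tfap2c, Dab2, Gata6, Cldn3, Cldn9, Cldn12, Cldn15 and Cgnl1 were named outside this rule, after their values were seen. Protein sequences were not used here, and 2 genes that the rule would name are not reported here.

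Whether embryo numbers pair the samples was not given. Over 36 pairs with the same number, the deviations from stage means correlated at -0.016 on average (-0.248 to 0.224). These values cannot show whether embryos with the same number shared parents or a day of fertilization.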

Additional observations from a re-analysis of the deposited data

Results flagged for a closer look

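Among 32 sets of 6 embryos (8 genes in 4 stages), 3 held an embryo far from the other 5 by Dixon's criterion, which chance passes in about 1 of 20 sets. Cldn6 in 8CB embryo 1 was at 355 CPM (119 UMIs), whereas the other 5 embryos of 8CB were at 71.7 CPM or below. Marveld2 in 4CB embryo 6 was at 20 CPM from 3 UMIs, and in 8CB embryo 2 at 3.33 CPM from a single UMI, the only one in that stage. At such counts an embryo stands apart through 1 to 3 UMIs.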

How the results depend on the processing

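Between the sides, 2CB with 4CB against 1C with 8CB, Cldn6, F11r and Cldn7 were called in the same direction under each alternative, and over all alternatives 3 to 5 of the tight junction genes were called, with Cldn4 lost in the cases named in the report and Cgn gained without 8CB embryo 3. The number of genes called was 3284, with 5525 when no filter was used, 4903 with DESeq2 (3079 higher and 1824 lower, against 1861 and 1423), 1186 after thinning (of 2001 tested), 2623 after thinning on the genes of the full-depth fit and 3256 to 3420 with each embryo left out. With no filter, 104 genes were called for 8CB against 1C and 48 for 4CB against 2CB, and DESeq2 called 44 and 16. Leaving out each embryo gave 0 to 3 for 8CB against 1C (3 without 1C embryo 5) and 1 to 6 for 4CB against 2CB (6 without 2CB embryo 3), where thinning gave 0 and the embryo number as a replicate block 1. None of the tight junction genes was called within a pool under any alternative. The cause of these moves was not tested.

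Values of genes that were not called changed sign. Tjp1 between the sides was at 0.01 with the replicate block, 0.31 after thinning on the genes of the full-depth fit, an alternative chosen after seeing the data, and -0.24 to 0.08 with each embryo left out. Cgn between the sides, at 0.36, was at 0.10 after thinning and 0.07 after thinning on the genes of the full-depth fit. Within the pools, Cgn in 8CB against 1C, at 0.07, was at -0.08 with the block and 0.51 after thinning, and without single embryos Cldn7 ran from -0.11 to 0.31, F11r from -0.20 to 0.48 and Cgn from -0.26 to 0.25. In 4CB against 2CB, Cldn4 was at 0.02 with the block, with DESeq2 size factors and with DESeq2, Cldn6 at 0.07 after thinning, and Cgn at -0.01 with the block and -0.08 with no filter. There, leaving out each embryo gave -0.17 to 0.19 for Cldn4, -0.22 to 0.06 for Cldn6, -0.27 to 0.01 for F11r and -0.03 to 0.17 for Cgn. The block changed no call of these genes. Without subtraction of stage means, r rose to 0.1 for Cldn4 with Cldn6 and to 0.613 for Cldn7 with F11r. Depth limits Ocln and Marveld2, which had 120 and 41 UMIs in all.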
